A study of Mus musculus with 11 samples.

Results

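vTreg53 Treg cells carry the rearranged T cell receptor (TCR) of 1 Treg clone from visceral adipose tissue (VAT), and Fat1562 is a peptide that this TCR recognizes. The question addressed here was which transcripts changed in vTreg53 Treg cells residing in VAT when their peptide was given in vivo. The comparison was chosen by tissue and immunization labels: the 3 VAT libraries with adjuvant/Fat1562 were set against the 2 VAT libraries with adjuvant alone, 5 of the 11 libraries of the series. Of the 52997 genes in the count table, 12122 entered the test, those whose mean was above 10 in at least 1 VAT group once each library had been scaled to the average total.

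All donor cells were Treg cells from spleen and lymph nodes of male CD45.2+ vTreg53 Tg+ mice on the C57BL/6 background. In these mice both chains of the TCR are transgenes, and Foxp3 carries a GFP knock-in (Foxp3-GFP). The cells were transferred into CD45.1+ B6 males. The recipients received complete Freund's adjuvant with or without Fat1562 under the skin 6 weeks after transfer and incomplete Freund's adjuvant with or without Fat1562 in the peritoneal cavity 1 week later, and clonotype+ Treg cells were sorted from VAT after another week. The sample labels give 15 weeks as the age and call the control group unimmunized, with PBS in its sample names, whereas the methods of the study describe adjuvant alone, and it is called adjuvant alone here. Each library came from 1000 double-sorted cells by Smart-seq2, a full-length poly(A) protocol, with 18 cycles of PCR. The sort was for a single clonotype, so that other Treg clones were not sampled by design. The methods of the study name the libraries biological replicates, but neither they nor the labels say whether each came from its own mouse or pool, and p-values measure the spread between these libraries.

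Treg cells are CD4+ T cells that depend on the transcription factor Foxp3 and restrain other immune cells. Those of VAT are known for the IL-33 receptor ST2 (Il1rl1), the transcription factors Gata3 and PPARγ, chemokine receptors such as Ccr2, and genes of lipid handling. Recognition of peptide by the TCR starts kinase cascades that switch on immediate-early genes within minutes and, later, genes for growth, glycolysis, division and inhibitory receptors such as Lag3 and PD-1.

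Total counts were 5289428 and 4490242 in the adjuvant libraries and 4989677, 5433465 and 5957543 in the Fat1562 libraries. The cell labels were checked against defining genes. Foxp3 had normalized counts, that is counts scaled to a common library size, of 10252 and 9365 with adjuvant alone and 9044, 8192 and 9059 with Fat1562, and its difference missed the test (log2 fold change -0.16 ± 0.08 (SE), edgeR adjusted p = 0.233). Cd4, Il2ra, Ikzf2 and Ctla4, further Treg genes, were not called either. Of the counts on TCR alpha V genes, 91.9% to 97.7% fell on Trav14 genes in the 5 VAT libraries, and of those on beta V genes, 95.9% to 98.3% fell on Trbv2. Both lowest shares belonged to VAT adjuvant alone replicate 2. That library also stood apart in B cell and plasma cell markers, whose summed normalized count was 41662 against 7602 to 10178 in the other VAT libraries (20 genes), and in immunoglobulin genes (49762 against 6796 to 9034). None of 12 adipocyte markers passed the filter on low counts, and the summed counts of 23 macrophage and dendritic cell markers ran from 1695 to 1936 in all 5 libraries.

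Fat1562 was followed by changes of similar extent in both directions. By edgeR's quasi-likelihood test with Benjamini-Hochberg adjustment, a gene being called at an adjusted p under 0.05, 562 genes were higher and 536 lower, which is 4.64% and 4.42% of the genes tested. At an unadjusted p under 0.05 there were 2695 genes. Over all 12122 genes tested, the 3 Fat1562 libraries did not overlap the 2 adjuvant libraries in 2585 genes that were higher and 2566 that were lower. Such separation was thus common without a call, and among the 1098 called genes it was found in 1090. Of the 1098 called genes, the change was over 2-fold for 254 called higher and 207 called lower. With only 2 control libraries, the count rests on both: it was 568 without VAT adjuvant alone replicate 1 and 533 without replicate 2, where the arm holds 1 library that is assumed to vary like the others, and 652 without VAT adjuvant/Fat1562 replicate 2. Below, calls that a single library decides are given with that library, written as adjuvant 1 or 2 and Fat 1, 2 or 3 for the VAT replicates.

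**Figure D1:**
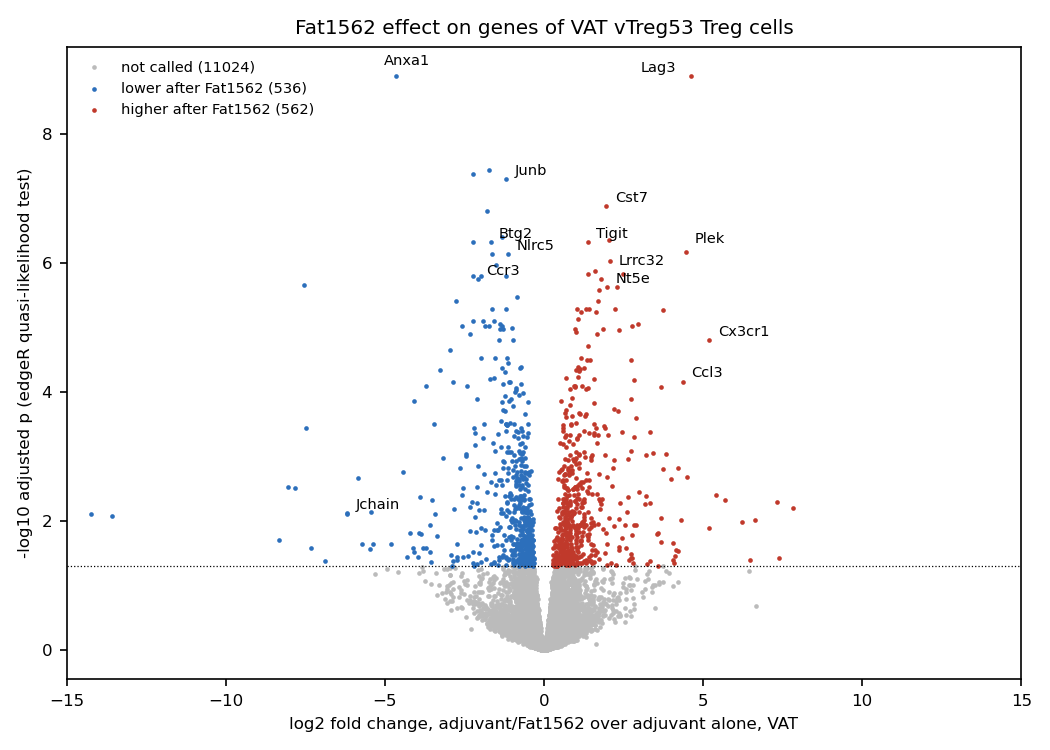
Log2 fold change of the Fat1562 over the adjuvant libraries of VAT (x axis) against the -log10 adjusted p of edgeR's quasi-likelihood test (y axis), 1 point per tested gene. Red points are the 562 genes called higher, blue points the 536 called lower and grey points those not called, and the dotted line marks an adjusted p of 0.05. Anxa1 and Lag3 stand highest, on opposite sides.

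The genes with the largest increases encoded inhibitory and chemokine receptors, chemokines and signaling adaptors. Cx3cr1, the receptor for fractalkine (chr9:119901616-120069879, minus strand, GENCODE vM21 on GRCm38), went from 10.8 and 8.69 normalized counts in the adjuvant libraries to 342, 349.5 and 402 in the Fat1562 libraries, a log2 fold change of 5.20 ± 0.58 (SE). Lag3, an inhibitory receptor that binds MHC class II, went from 101 and 132 to 3090.1, 2552 and 2918 (4.62 ± 0.23). Plek, which encodes pleckstrin, a protein kinase C substrate, went from 47.7 and 23.6 to 950.3, 831 and 629.9 (4.47 ± 0.37). In all of these genes the lowest Fat1562 library was more than 10 times above the highest adjuvant library. The chemokine genes Ccl3 and Ccl4 changed by 4.36 ± 0.56 and 3.69 ± 0.84, and Pik3ap1, an adaptor for phosphoinositide 3-kinase, by 3.75 ± 0.38. Il1rn, the antagonist of the IL-1 receptor, was more abundant but more variable, with 131 and 208 in the adjuvant libraries and 2464, 1820.4 and 799 in the Fat1562 libraries (3.32 ± 0.51). Others among the 12 largest increases were Muc4, a membrane mucin, Cystm1, Wisp1, a matricellular protein, and Ncam1, a neural adhesion molecule, with log2 fold changes from 3.19 (Ncam1) to 4.49 (Muc4). Muc4 was at 0 in VAT adjuvant alone replicate 1 and its call was lost with DESeq2, as was that of Ccl4. The call of Ccl4 (adjuvant 1) was lost without the library in parentheses (edgeR adjusted p = 0.109 at most).

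Among the largest decreases, Anxa1 (chr19:20373428-20390944, minus strand), which encodes the glucocorticoid-induced phospholipid-binding protein annexin A1, went from 2109.5 and 1663 normalized counts with adjuvant alone to 109.6, 56.6 and 62.5 with Fat1562 (log2 fold change -4.64 ± 0.23 (SE), edgeR adjusted p = 1.24e-09). Hpgd, whose enzyme degrades prostaglandin E2, went from 98.7 and 114 to 11.2, 2.02 and 8.16 (-3.89 ± 0.79). In these genes both adjuvant libraries lay at least 5 times above every Fat1562 library. Mmp9, a matrix-degrading protease, Nebl, an actin-binding protein, and Lrrn4, a leucine-rich repeat membrane protein that was also listed as a mesothelial marker, had log2 fold changes of -2.85, -3.25 and -2.75. The stress-induced transcription factor Atf3 went from 535 and 237 to 50.3, 14.1 and 25.4 (-3.70 ± 0.45). Slco2b1, an organic anion transporter, Kit, the receptor for stem cell factor, and Lpcat2, an enzyme of platelet-activating factor synthesis, were at -3.46, -3.35 and -3.16. Ly6c1 was at -4.09, but shares 41.4% of its possible 38-base reads with other genes, mainly Ly6c2. Jchain, the immunoglobulin joining chain, had the largest decrease of these 12 genes (-6.17 ± 1.37) and rests on the library rich in plasma cell markers: its counts were 62.9 and 1723 in the adjuvant libraries and 5.59, 3.03 and 26.3 in the Fat1562 libraries, and without VAT adjuvant alone replicate 2 its edgeR adjusted p was 0.447. Leaving out the library in parentheses ended the calls of Kit (adjuvant 2, Fat 2 and Fat 3), Lpcat2 (adjuvant 2) and Jchain (adjuvant 2) (edgeR adjusted p = 0.447 for Jchain at most).

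**Figure D2:**
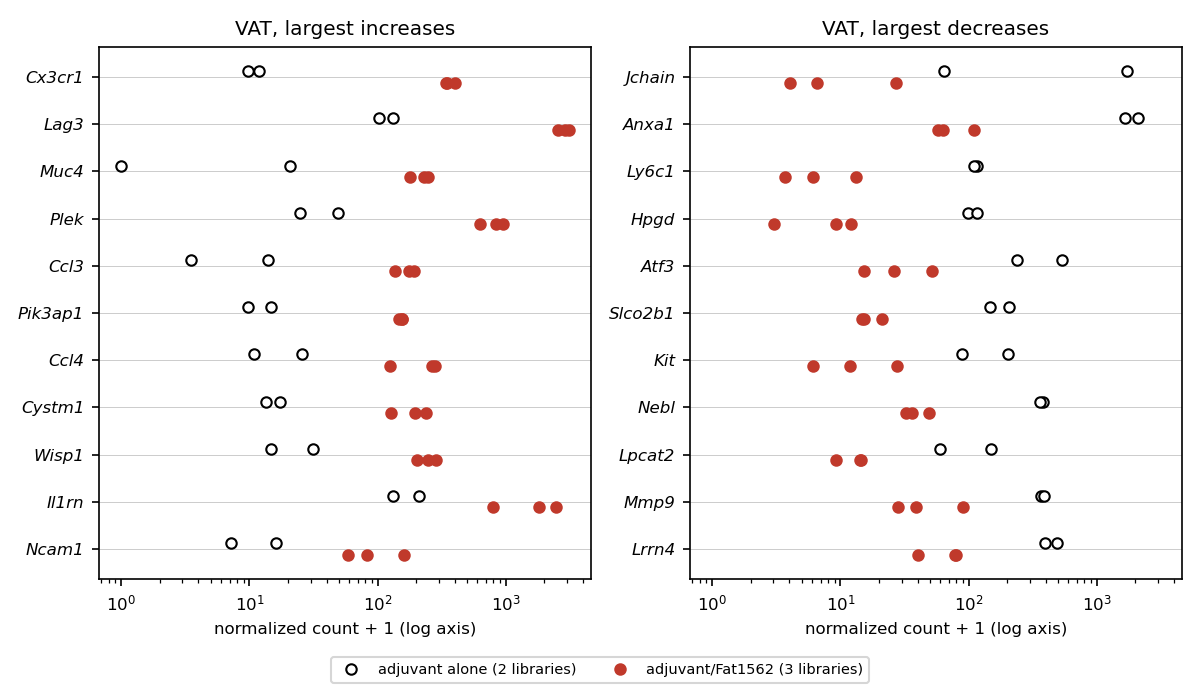
Normalized count plus 1 on a log axis (x axis) in each VAT library for 11 of the 12 largest increases (left) and 11 of the 12 largest decreases (right) among called genes. Open points are the 2 adjuvant libraries and filled points the 3 Fat1562 libraries. The groups do not overlap in any of the 22 genes because the rule that picked them required it. For Jchain, 1 adjuvant library lies at 62.9 and the other at 1723.

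Of 16 inhibitory receptor genes tested, 7 were called higher and 4 lower, with a median log2 fold change of 0.57 against 1.04e-04 over all tested genes. Havcr2, which encodes TIM-3, had 312 and 336 normalized counts with adjuvant alone and 1402, 971 and 1009.7 with Fat1562 (1.80 ± 0.16). Tigit, a receptor for CD155, had 2570.5 and 2075 against 5551, 6155 and 6356 (1.37 ± 0.11). Pdcd1, which encodes PD-1, had 4434 and 3359 against 7013, 6753 and 5396 (0.71 ± 0.15). All Fat1562 libraries were above both adjuvant libraries for these genes, and also for Cd200 (1.41), Cd101 (0.81) and Vsir (0.56), which encodes VISTA. Such separation held for 1090 of the 1098 called genes. The members called lower were Cd200r1 (-1.21), the receptor for CD200, Lilrb4a (-0.77), Cd274 (-0.64), which encodes PD-L1, and Klrg1 (-0.43), a receptor for cadherins. Ctla4 was at -0.13 ± 0.10 (edgeR adjusted p = 0.510). The 7 higher calls were 4 without VAT adjuvant alone replicate 2, and the 4 lower calls were 1 without it and 2 without VAT adjuvant alone replicate 1 or without VAT adjuvant/Fat1562 replicate 2 or 3. Lilrb4a shares 52.4% of its possible reads with other genes, mainly its paralog Lilr4b. Without the VAT library in parentheses, the calls of Pdcd1 (adjuvant 2), Cd101 (adjuvant 1 and adjuvant 2), Vsir (adjuvant 2 and Fat 2), Lilrb4a (adjuvant 2), Cd274 (adjuvant 1, adjuvant 2, Fat 2 and Fat 3) and Klrg1 (adjuvant 1, adjuvant 2, Fat 2 and Fat 3) were lost (edgeR adjusted p = 0.214 for Cd274 at most).

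A list of costimulatory genes held members of the TNF receptor and CD28 families and others, and 5 of its 20 genes were called higher and 4 lower. Of the called genes, Cd226, Cd6 and Slamf6 belong to neither family, and Cd40lg encodes a ligand. Tnfrsf25 was the only member of the 2 families among the 4 called lower. Cd28, the receptor for CD80 and CD86, had 1552 and 1194 normalized counts with adjuvant alone and 2628, 2215 and 2370.1 with Fat1562 (0.81 ± 0.13). Cd27 had 1551 and 1287 against 3146, 2819.6 and 2637 (1.01 ± 0.11), and Tnfrsf9, which encodes 4-1BB, had 5860.0 and 5205 against 13971, 10754 and 7844 (0.97 ± 0.17). Slamf6 and Tnfrsf1b, a receptor for TNF, were higher by 0.83 and 0.40. In the other direction, Cd226, the activating receptor that competes with Tigit for CD155, went from 203 and 212 to 35.8, 44.5 and 23.6 (-2.59 ± 0.28). Cd40lg went from 165 and 194 to 36.9, 36.4 and 33.5 (-2.33 ± 0.26), and Tnfrsf25, which encodes DR3, from 1832 and 1726 to 659.6, 539 and 665 (-1.52 ± 0.13). Cd6 was the other member called lower (-0.53). Cd226 and Tigit, which bind the same ligand, were called in opposite directions. Icos (0.33), Tnfrsf4 (0.35), which encodes OX40, and Tnfrsf18 (0.20), which encodes GITR, were not called. Calls that were lost without the library in parentheses were Slamf6 (adjuvant 1) and Tnfrsf1b (adjuvant 2) (edgeR adjusted p = 0.0970 for Tnfrsf1b at most).

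Genes of suppressive molecules moved in both directions. Of 18 tested, 7 were called higher, among them some for surface TGF-β handling, adenosine production, perforin and the secreted antagonist Il1rn, and 5 were called lower, among them those for the secreted factors IL-10, amphiregulin and FGL2 and the receptor gene Nrp1. Lrrc32 (chr7:98489283-98502181, plus strand), which encodes GARP, the protein that holds latent TGF-β on the Treg surface, went from 253 and 290.4 normalized counts to 1245, 1159 and 1016 (2.07 ± 0.18). Itgb8, a chain of the integrin that activates latent TGF-β, went from 277 and 247 to 1223, 873 and 739.6 (1.85 ± 0.20). Nt5e and Entpd1, which encode the ectoenzymes CD73 and CD39 that turn ATP into adenosine, were higher by 1.98 ± 0.19 and 0.69 ± 0.10. Nt5e had 395 and 428 counts with adjuvant alone and 1797, 1599 and 1481 with Fat1562, the lowest Fat1562 library being more than 3 times the highest adjuvant library. Prf1, perforin, was higher by 2.02 ± 0.32 and Cst7, cystatin F, by 1.96 ± 0.14. The 7 higher calls, which include Il1rn, were 7 in each of the 20 alternatives. Il10 had 1234 and 1042 counts with adjuvant alone and 901, 338 and 523 with Fat1562 (-0.96 ± 0.27), with a wide spread between the Fat1562 libraries. Areg, the growth factor amphiregulin, had 8383 and 6249.8 against 3646, 3973 and 2300.3 (-1.15 ± 0.17), and Fgl2 was lower, at -0.78 ± 0.11. Lgals3, galectin-3, and Nrp1, a semaphorin receptor, were at -0.76 and -0.69. The 5 lower calls were 3 without either VAT adjuvant library or without VAT adjuvant/Fat1562 replicate 2. Gzmb (-0.26) and Tgfb1 (-0.62, edgeR adjusted p = 0.128) were not called. Leaving out the library in parentheses ended the calls of Il10 (adjuvant 1, adjuvant 2, Fat 2 and Fat 3), Lgals3 (adjuvant 1 and Fat 2) and Nrp1 (adjuvant 2) (edgeR adjusted p = 0.204 for Il10 at most).

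Of 38 tested genes by which VAT Treg cells are known, 18 were called lower and 7 higher, with a median log2 fold change of -0.56. The summed normalized count of the 39 listed genes was 100572 and 96318 with adjuvant alone and 65852 to 84965 with Fat1562. In the 6 spleen and lymph node (Spl/LN) libraries it was lower, at 30455 to 37039. Comparing VAT with Spl/LN after Fat1562, the study found VAT-Treg signature genes still favored in VAT. Il1rl1, which encodes ST2, went from 6608 and 6411 normalized counts with adjuvant alone to 2752, 1599 and 1523 with Fat1562 (-1.73 ± 0.19). Gata3 had 6302 and 6844 against 4674, 3246 and 3234 (-0.82 ± 0.13), and Rora had 4458 and 4063 against 2534, 2468 and 1945 (-0.88 ± 0.12). Both adjuvant libraries lay above all 3 Fat1562 libraries for these genes and for the other members called lower, except Dgat2. The groups were separate in 1090 of the 1098 called genes, so this adds little to the calls. Ccr1, Ccr2 and Ccr3, chemokine receptors of inflamed tissue, were lower, at -1.86, -0.69 and -2.07. The type 2 genes Il5 (-3.69), Il9r (-1.23) and Hpgds (-2.15), which encodes a prostaglandin D2 synthase, were called lower too. Cish, a STAT5 target that dampens cytokine signals, was at -0.98 ± 0.11. Among lipid genes, Plin2, the coat protein of lipid droplets, had 3177 and 2843 against 2308, 1585 and 1438 (-0.76 ± 0.16), and Dgat1, which makes triglyceride, had 5509 and 4847 against 3638, 2866 and 2765 (-0.75 ± 0.12). Pparg was not called (413 and 396 against 390.2, 301 and 280.1, -0.32 ± 0.32, edgeR adjusted p = 0.612), nor was Cd36, the fatty acid transporter (4.34 and 21.1 against 0, 1.01 and 4.53). The call of Dgat2 (-0.80) rests on VAT adjuvant alone replicate 2, since its counts were 876 and 2141 with adjuvant alone and 953, 812 and 832 with Fat1562, and its edgeR adjusted p without that library was 0.989. Among these genes, the calls of Il5 (adjuvant 1, adjuvant 2, Fat 1, Fat 2 and Fat 3), Plin2 (adjuvant 1) and Dgat2 (adjuvant 2, Fat 1, Fat 2 and Fat 3) were lost without the library in parentheses (edgeR adjusted p = 0.989 for Dgat2 at most).

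The 7 VAT Treg genes called higher included receptors and transcription factors. Il1r2, the decoy receptor for IL-1, went from 723 and 601 to 3318, 3304 and 3067 normalized counts (2.28 ± 0.21), and the tetraspanin gene Cd81 from 3408 and 2817 to 6879, 6737 and 5977 (1.07 ± 0.11). The transcription factors Nfil3 (1.21), Batf (0.82) and Hif1a (0.37) and the lipid receptor gene Gpr55 (0.80) were also called higher, as was Cebpb (2.88) from counts of 5.42 and 4.96 with adjuvant alone. Of 32 cholesterol genes, 3 were called lower (Nsdhl, Sc5d and Srebf2, -0.72 to -0.48), which is 9.4% against 4.42% of all tested genes. Of 28 fatty acid genes 4 were called lower, namely the thioesterase gene Acot7 (-0.53) and 3 that are VAT Treg genes already given above, Plin2, Dgat1 and Dgat2. Without the VAT library in parentheses, the calls of Hif1a (adjuvant 1, adjuvant 2, Fat 1 and Fat 2), Cebpb (adjuvant 1 and adjuvant 2), Nsdhl (adjuvant 1, adjuvant 2, Fat 2 and Fat 3), Srebf2 (adjuvant 1, Fat 1 and Fat 2), Acot7 (adjuvant 1, Fat 2 and Fat 3), Sc5d (adjuvant 1 and Fat 2), Plin2 (adjuvant 1) and Dgat2 (adjuvant 2, Fat 1, Fat 2 and Fat 3) were lost (edgeR adjusted p = 0.989 for Dgat2 at most).

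Of 30 cytokine receptor genes tested, 9 were called lower and 5 higher. Il18r1, which encodes a chain of the IL-18 receptor and belongs to the same family as Il1rl1, went from 126 and 65.8 to 248, 241 and 281 normalized counts (1.41 ± 0.22). The IL-2 receptor chains moved apart by small amounts, Il2rb being higher by 0.34 ± 0.08 and the shared gamma chain Il2rg lower, at -0.36 ± 0.08, while Il2ra was not called (-0.35 ± 0.16, edgeR adjusted p = 0.207). Il10ra had 3205 and 3387 against 1571, 1176 and 1537 (-1.21 ± 0.12). Il6ra (-1.29), Il4ra (-0.41) and Ifngr1 (-0.34) were also called lower, and Il1r1 (2.68) and Crlf2 (0.53), a receptor for TSLP, higher. Il7r was called lower (-0.47), but its adjuvant counts of 2900.2 and 4299 overlapped the Fat1562 counts of 3016, 2222 and 2549.6, and its edgeR adjusted p without VAT adjuvant alone replicate 2 was 0.652. The 5 higher calls were 2 without VAT adjuvant alone replicate 2 and 3 without VAT adjuvant alone replicate 1 or VAT adjuvant/Fat1562 replicate 1 or 3, and the 9 lower calls were 5 without VAT adjuvant alone replicate 2 or VAT adjuvant/Fat1562 replicate 2. Calls that were lost without the library in parentheses were Il2rb (adjuvant 2), Il2rg (adjuvant 1), Il4ra (adjuvant 1, adjuvant 2, Fat 2 and Fat 3), Ifngr1 (adjuvant 1, adjuvant 2, Fat 2 and Fat 3), Il1r1 (adjuvant 1, adjuvant 2, Fat 1 and Fat 3), Crlf2 (adjuvant 1, adjuvant 2, Fat 1 and Fat 3) and Il7r (adjuvant 2, Fat 2 and Fat 3) (edgeR adjusted p = 0.652 for Il7r at most).

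The Th1-like genes called higher were those of the transcription factor T-bet and of proteins known as its targets. Tbx21, which encodes T-bet, went from 111 and 31.0 normalized counts with adjuvant alone to 411, 633 and 397 with Fat1562 (2.74 ± 0.37). The chemokine receptor gene Cxcr3 went from 288 and 233 to 577, 899 and 1092 (1.71 ± 0.27), the chemokine gene Ccl5 from 257 and 300.3 to 904, 1172 and 1015 (1.89 ± 0.28). The granule gene Nkg7 went from 178 and 65.8 to 756, 892 and 955 (2.82 ± 0.36). In all 4 genes every Fat1562 library lay above both adjuvant libraries, a separation found in 1090 of the 1098 called genes. Of the 12 Th1-like genes tested these were the 4 called higher, while Stat4, which signals from the IL-12 receptor, was lower, at -0.74 ± 0.14 along with Ly6c1 and Ly6c2. Ly6c2 had 3.25 and 249 counts with adjuvant alone and 13.4, 4.04 and 4.53 with Fat1562, and without VAT adjuvant alone replicate 2 its log2 fold change was 1.12 (edgeR adjusted p = 0.778). The transcription factor gene Irf8 was higher as well (568 and 381 against 1013, 932 and 596, 0.83 ± 0.20), and 5 of 27 TCR-induced and effector transcription factors were called higher and 6 lower. Leaving out the library in parentheses ended the calls of Stat4 (adjuvant 1), Irf8 (adjuvant 2, Fat 1 and Fat 2) and Ly6c2 (adjuvant 2, Fat 2 and Fat 3) (edgeR adjusted p = 0.778 for Ly6c2 at most).

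Receptors that guide migration moved in both directions, with 8 of 25 called lower and 5 higher. Ccr8, a receptor of tissue Treg cells, had 3248 and 2326 normalized counts with adjuvant alone and 6083, 5837 and 4795 with Fat1562 (1.00 ± 0.15), and Cxcr5, which guides cells to B cell follicles, was at 1.49 ± 0.44. Ltb4r1, the receptor for leukotriene B4, had 3918 and 3848 against 1899, 1339 and 1975 (-1.16 ± 0.14). Ccr6, Gpr15, Gpr34 and P2ry10 were lower, at -0.71, -1.63, -2.33 and -0.61. Ptger2, a prostaglandin E2 receptor that signals through cAMP, was higher (134 and 91.8 against 240.4, 265 and 227, 1.10 ± 0.19). Among cytokine and chemokine genes, 7 of 23 were called lower and 3, the chemokines Ccl3, Ccl4 and Ccl5, higher. Tnf had 948 and 551 against 284, 275 and 260.1 (-1.46 ± 0.23), and Cxcl10, a chemokine that binds Cxcr3, had 356 and 329 against 69.3, 85.9 and 31.7 (-2.46 ± 0.42). The 7 lower cytokine calls were 4 without VAT adjuvant alone replicate 1 or VAT adjuvant/Fat1562 replicate 3 and 3 without VAT adjuvant alone replicate 2. Among these genes, the calls of Cxcr5 (adjuvant 2, Fat 1 and Fat 3), Ccr6 (adjuvant 2), Gpr15 (adjuvant 2, Fat 2 and Fat 3), Gpr34 (adjuvant 1) and Ccl4 (adjuvant 1) were lost without the library in parentheses (edgeR adjusted p = 0.345 for Cxcr5 at most).

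Many immediate-early genes were lower 1 week after the boost. Of 29 tested genes of the immediate-early and tissue-dissociation response, 14 were called lower and 1, Cebpb, higher, with a median log2 fold change of -0.78. Junb, an AP-1 subunit, had 42439.6 and 37796 normalized counts with adjuvant alone and 18515, 18439.8 and 16196 with Fat1562 (-1.18 ± 0.08, edgeR adjusted p = 4.93e-08). Fos had 7228 and 5289 against 2104, 1607 and 2038 (-1.71 ± 0.22), and Egr1, a zinc finger factor induced by MAP kinase signals that was counted with the transcription factors, had 1657 and 2405 against 414, 339 and 538 (-2.23 ± 0.20). Fosb, Klf4 and Ier2 were at -1.92, -2.57 and -0.58. Genes of mRNA decay were among them, Zfp36 (5917 and 5557 against 2244, 1657 and 1633, -1.64 ± 0.14) and Btg2 (5525 and 4681 against 1577, 1594 and 1615, -1.68 ± 0.13). Of the orphan nuclear receptors that report TCR signals, also counted with the transcription factors, Nr4a1 (22867 and 17863 against 11432, 9516 and 8725, -1.04 ± 0.17) and Nr4a3 (-1.12 ± 0.21), were lower too, whereas Egr2 (-0.06), Nr4a2 (-0.41) and Irf4 (-0.30) were not called. The summed normalized count of the 30 listed genes was 158582 and 135956 in the adjuvant libraries against 65026 to 87208 in the Fat1562 libraries, and 21772 to 29166 in the 6 Spl/LN libraries. Many of these genes also respond to enzymatic dissociation of tissue, and the part of cell handling in these differences was not tested. Without the VAT library in parentheses, the calls of Klf4 (adjuvant 1), Ier2 (adjuvant 2, Fat 1 and Fat 2) and Cebpb (adjuvant 1 and adjuvant 2) were lost (edgeR adjusted p = 0.217 for Ier2 at most).

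Of 15 genes of MAP kinase phosphatases, Sprouty proteins and Ras regulators, which act on signals downstream of the TCR, 8 were called lower and 2 higher. Dusp1, which inactivates p38 and JNK, had 34191 and 26811 normalized counts with adjuvant alone and 14815, 11885 and 10780.1 with Fat1562 (-1.29 ± 0.14). Dusp10 (-1.36), Dusp5 (-0.83), Dusp6 (-1.98) and Dusp7 (-1.08) were lower as well, and the exceptions were Dusp2 (268 and 242 against 625, 492 and 699.7, 1.25 ± 0.21) and Dusp16 (32.5 and 11.2 against 159, 155 and 129, 2.72 ± 0.45). Of 28 NF-κB subunits and inhibitors, 6 were called lower, among them the inhibitors Nfkbia (-0.78 ± 0.13), Nfkbid (-1.15 ± 0.14) and Tnfaip3 (-0.70 ± 0.13), which encodes A20. The subunit gene Rel was called higher (1868 and 1467 against 2617, 2749 and 2226, 0.60 ± 0.13). Calls that were lost without the library in parentheses were Dusp6 (adjuvant 2, Fat 1 and Fat 2) and Rel (adjuvant 2) (edgeR adjusted p = 0.123 for Dusp6 at most).

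At the receptor itself, 8 of 30 proximal TCR signaling genes were called higher and 3 lower. Zap70, the kinase recruited to the TCR, had 1601 and 1265 normalized counts with adjuvant alone and 2346, 2665 and 2578 with Fat1562 (0.82 ± 0.11). The CD3 chain genes Cd3d, Cd3g and Cd3e were higher by 0.47, 0.37 and 0.29 and the kinase gene Lck by 0.45. The inhibitory phosphatases Ptpn6 (875 and 828 against 1381, 1869 and 1805, 0.98 ± 0.13) and Ptpn22 (0.64 ± 0.12) and the adaptor gene Sla (0.70 ± 0.10) were higher in the same libraries. Sit1 (-1.09), Prkcq (-0.80), which encodes PKCθ, and Trat1 (-0.98) were the members called lower. Genes of T cell anergy and ubiquitin ligases had 7 of 20 called higher and 2 lower. Izumo1r, which encodes the folate receptor FR4, had 828 and 954 against 1941, 1998 and 2095 (1.18 ± 0.12), and the ubiquitin ligase gene Cblb had 813 and 721 against 1424, 1230.5 and 1249.9 (0.76 ± 0.13). Rnf128, which encodes the ligase GRAIL, was in the other direction (77.0 and 138 against 22.4, 38.4 and 52.6, -1.49 ± 0.39), with Dgka (-0.45). Without VAT adjuvant alone replicate 2, the 8 higher proximal calls were 4 and both lower anergy calls were lost; without VAT adjuvant alone replicate 1, the 7 higher anergy calls were 4, and 1 of the 2 lower anergy calls was left without VAT adjuvant/Fat1562 replicate 1 or 2. Leaving out the library in parentheses ended the calls of Cd3g (adjuvant 2), Cd3e (adjuvant 1, adjuvant 2, Fat 1, Fat 2 and Fat 3), Lck (adjuvant 2), Ptpn22 (adjuvant 2), Trat1 (adjuvant 1, adjuvant 2, Fat 1 and Fat 2), Rnf128 (adjuvant 2, Fat 1 and Fat 2) and Dgka (adjuvant 2) (edgeR adjusted p = 0.310 for Rnf128 at most).

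Many genes of cell division were higher, but their calls depend on single libraries. Of 48 mitosis genes, 22 were called higher and 1, Pttg1, which encodes securin, lower (-0.59 ± 0.14). Of 45 DNA replication genes, 14 were called higher, and all 45 had a log2 fold change above 0. With DESeq2 the higher calls were 17 replication and 30 mitosis genes. Among mitosis genes, Kif11, the spindle motor Eg5, had 146 and 187 normalized counts with adjuvant alone and 309, 333 and 376 with Fat1562 (1.03 ± 0.20). Foxm1, the transcription factor of mitotic genes, had 62.9 and 62.1 against 102, 120.2 and 173 (1.08 ± 0.29). Both were above the adjuvant libraries in every Fat1562 library, a separation found in 1090 of the 1098 called genes. Among replication genes, Uhrf1, which maintains DNA methylation, had 457 and 235 against 654, 814 and 644 (1.02 ± 0.25), and Prim1, the primase subunit, had 279 and 120.4 against 432, 426 and 363 (1.02 ± 0.26), the lower adjuvant value being replicate 2 in both. Without VAT adjuvant alone replicate 2, 0 of the 45 replication genes and 6 of the 48 mitosis genes were called higher by edgeR's quasi-likelihood test, with 10 and 32 at an unadjusted p under 0.05. Without VAT adjuvant/Fat1562 replicate 2 these counts were 0 and 12, with 19 and 34 unadjusted, without replicate 1 of that group 7 and 24, without its replicate 3 they were 12 and 12, and without VAT adjuvant alone replicate 1 they were 16 and 9. Inhibitors of the cell cycle moved the other way, Cdkn1a (p21) being lower (1563 and 1292 against 796, 833 and 604, -0.94 ± 0.20) with Cdkn2d (p19, -0.96 ± 0.15), and the cyclin gene Ccnd2 (-0.61) was also lower while Ccne2 (1.83) was higher. In the list that holds these genes, 12% were called in each direction, against 4.64% higher and 4.42% lower among all tested genes. Of the 25 genes in this group of E2F factors, cyclins and inhibitors, 3 were called higher, 1 of them without VAT adjuvant alone replicate 2, and 3 lower, 1 of them without VAT adjuvant alone replicate 1. Among these genes, the calls of Pttg1 (adjuvant 1), Kif11 (adjuvant 1), Foxm1 (adjuvant 1, adjuvant 2 and Fat 3), Uhrf1 (adjuvant 2 and Fat 2), Prim1 (adjuvant 2, Fat 1 and Fat 2), Cdkn1a (adjuvant 1), Ccnd2 (adjuvant 1) and Ccne2 (adjuvant 2) were lost without the library in parentheses (edgeR adjusted p = 0.238 for Prim1 at most).

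**Figure D3:**
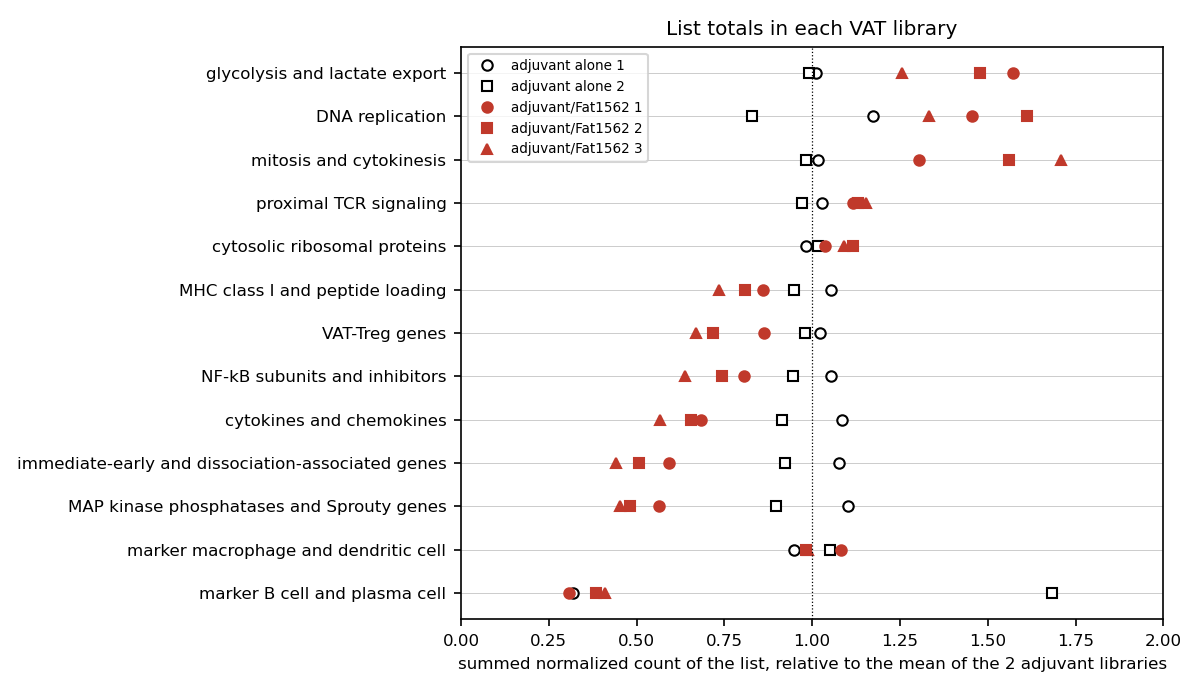
Summed normalized count of each gene list in each VAT library, divided by the mean of the 2 adjuvant libraries (x axis, dotted line at 1). Open symbols are adjuvant libraries and filled symbols Fat1562 libraries. Immediate-early genes and MAP kinase phosphatases lie at 0.442 to 0.592 and 0.453 to 0.564 in the Fat1562 libraries, and B cell and plasma cell markers stand out in adjuvant alone replicate 2, at 1.68.

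To show what the promoters of these division and immediate-early genes hold, 11 motifs were searched on both strands in the 250 bases before the RefSeq start of 8832 of the 12122 tested genes. An E2F motif (TTTGGCGC or TTTCCCGC) was found in 2.76% of all promoters and in 6 of 37 DNA replication promoters (16.2%). CCAAT, the NF-Y box, was found in 36.8% of all and in 26 of 39 mitosis promoters (66.7%) and 24 of 37 DNA replication promoters (64.9%). TTTGAA, the core of the CHR element of mitotic genes, was found in 10.7% of all, 25.6% of mitosis and 13.5% of replication promoters. The cAMP response element TGACGTCA was found in 2.85% of all promoters and in 3 of 26 immediate-early promoters, those of Btg2, Dusp1 and Ppp1r15a, all called lower. It was also in 1 of 37 DNA replication promoters, that of Mcm5, which was called higher, and in 1 of 39 mitosis promoters. None of the 11 motifs contains another on either strand, and a match is a description of the sequence only. Across the called genes, the E2F motifs were in 3.79% of promoters of genes called higher and 1.54% of those called lower, CCAAT in 40.5% and 34.9%, and the AP-1 motif TGACTCA in 2.23% and 3.85%, against 2.76% of all. The KLF motif CCCCACCC was in 14.3% and 18.7%, against 11% of all. The CHR core TTTGAA was in 13.8% and 9.23%, against 10.7% of all. The cAMP response element TGACGTCA was in 1.56% and 2.82%, against 2.85% of all, so genes called lower held it near the share of all promoters. The remaining shares for genes called higher and lower were 15.8% and 16.7% for the NFAT motif TGGAAA (14.9% of all), 7.35% and 9.23% for the E box CACGTG (8.62%), 0.668% and 0% for the interferon motif GAAACTGAA (0.555%), and 0.445% and 0.513% for the NF-κB motif GGGACTTTC (0.34%).

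Promoters of 6 genes are shown to let these motifs be seen in place, 2 for each of the 3 groups. They are from RefSeq on GRCm38.p6, 250 bases ending before the start, 5′ to 3′ in the direction of the gene. Capitals mark the E2F motifs in replication genes, CCAAT and TTTGAA in mitosis genes, and the cAMP response element in immediate-early genes. Matches to other motifs stay in lower case, among them CCAAT in Pola1 and Mcm5 and TGACGTCA in Mcm5. Pola1 (chrX:93632156-93632405, minus strand, log2 fold change 0.81) and Mcm5 (chr8:75109259-75109508, plus strand, 0.65) are replication genes with an E2F motif, Ect2 (chr3:27153879-27154128, minus strand, 1.02) and Ccnb2 (chr9:70421555-70421804, minus strand, 0.92) are mitosis genes with CCAAT and CHR motifs, and Btg2 (chr1:134079156-134079405, minus strand, -1.68) and Dusp1 (chr17:26508473-26508722, minus strand, -1.29) are immediate-early genes with a cAMP response element. Without the VAT library in parentheses, the calls of Pola1 (adjuvant 1, adjuvant 2, Fat 1, Fat 2 and Fat 3), Mcm5 (adjuvant 2, Fat 1 and Fat 2), Ect2 (adjuvant 1, adjuvant 2, Fat 2 and Fat 3) and Ccnb2 (adjuvant 1 and adjuvant 2) were lost (edgeR adjusted p = 0.381 for Mcm5 at most).
Pola1: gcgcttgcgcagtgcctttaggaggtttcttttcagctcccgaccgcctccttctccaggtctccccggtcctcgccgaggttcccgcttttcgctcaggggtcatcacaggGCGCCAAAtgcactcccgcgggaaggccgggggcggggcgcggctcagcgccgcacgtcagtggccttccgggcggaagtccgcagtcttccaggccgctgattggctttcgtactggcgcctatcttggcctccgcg
Mcm5: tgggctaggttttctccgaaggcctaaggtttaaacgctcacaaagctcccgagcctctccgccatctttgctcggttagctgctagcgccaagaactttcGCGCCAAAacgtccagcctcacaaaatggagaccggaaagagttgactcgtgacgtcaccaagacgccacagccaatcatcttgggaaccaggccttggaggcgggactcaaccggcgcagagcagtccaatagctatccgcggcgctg
Ect2: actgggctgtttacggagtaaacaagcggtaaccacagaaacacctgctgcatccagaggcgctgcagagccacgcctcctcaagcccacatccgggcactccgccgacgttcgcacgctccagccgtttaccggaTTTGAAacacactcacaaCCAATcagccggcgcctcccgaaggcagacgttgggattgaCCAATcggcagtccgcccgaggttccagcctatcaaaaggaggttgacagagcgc
Ccnb2: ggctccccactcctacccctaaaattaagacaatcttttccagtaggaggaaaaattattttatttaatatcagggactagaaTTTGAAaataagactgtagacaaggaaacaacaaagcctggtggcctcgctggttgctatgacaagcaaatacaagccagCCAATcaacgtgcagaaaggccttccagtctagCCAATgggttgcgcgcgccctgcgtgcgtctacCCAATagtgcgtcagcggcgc
Btg2: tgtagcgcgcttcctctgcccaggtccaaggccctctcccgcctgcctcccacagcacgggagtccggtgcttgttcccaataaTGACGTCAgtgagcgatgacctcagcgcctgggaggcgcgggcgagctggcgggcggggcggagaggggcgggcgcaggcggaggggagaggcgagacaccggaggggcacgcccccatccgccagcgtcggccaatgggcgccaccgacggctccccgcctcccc
Dusp1: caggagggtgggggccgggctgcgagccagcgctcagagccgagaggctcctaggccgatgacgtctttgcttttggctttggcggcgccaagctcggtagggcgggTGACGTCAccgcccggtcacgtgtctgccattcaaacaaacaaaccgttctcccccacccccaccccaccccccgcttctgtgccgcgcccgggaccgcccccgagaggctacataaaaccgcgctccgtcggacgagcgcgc

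Of 27 genes of glycolysis and lactate export, 15 were called higher and 1 lower. Slc16a3, which encodes the lactate exporter MCT4, had 283 and 209.7 normalized counts with adjuvant alone and 1526, 1186 and 808 with Fat1562 (2.25 ± 0.22). Eno3, an enolase, had 45.6 and 52.1 against 258, 246 and 170.4 (2.20 ± 0.31), and Tpi1, triosephosphate isomerase, had 1379.6 and 1419.7 against 3127, 3311 and 2415 (1.08 ± 0.14). In all 3 genes the Fat1562 libraries were well above the adjuvant libraries. The abundant enzymes Gapdh, Pkm, Eno1, Ldha and Pgk1 were higher by smaller amounts, from 0.54 (Gapdh) to 0.68 (Pgk1). These genes share 27%, 30.9%, 27.6%, 15.3% and 54.4% of their possible 38-base reads with others, and Phgdh, given below, shares 53.3%. Egln3, an oxygen-sensing prolyl hydroxylase, was the member called lower (-1.23 ± 0.25), and the glucose transporter genes Slc2a1 (0.45) and Slc2a3 (-0.47) were not called. The 15 higher calls were 9 without VAT adjuvant alone replicate 2. In serine and one-carbon metabolism Phgdh (0.89), Mthfd2 (0.65) and Mthfd1l (0.74) were higher, while edgeR called 0 of 22 aminoacyl-tRNA synthetase genes and DESeq2 0, with 3 at an unadjusted p under 0.05. Ribosomal protein, oxidative phosphorylation and proteasome genes had 4 of 85, 3 of 73 and 1 of 37 called higher, near the share among all genes. Most of them had a log2 fold change above 0 (72, 56 and 32 genes), against 6062 of all 12122. The median log2 fold changes were small, at 0.11, 0.10 and 0.14. Calls that were lost without the library in parentheses were Egln3 (adjuvant 1), Mthfd2 (adjuvant 1) and Mthfd1l (adjuvant 1 and adjuvant 2) (edgeR adjusted p = 0.0559 for Mthfd1l at most).

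Of 23 genes of MHC class I and peptide loading, 5 were called lower and 1, Psme2 (0.80), a subunit of the proteasome activator, higher. Nlrc5, the transactivator of MHC class I genes, had 3133 and 3168 normalized counts with adjuvant alone and 1443, 1427 and 1459 with Fat1562 (-1.13 ± 0.09), and the 3 Fat1562 libraries lay within a narrow range, each more than 2-fold below both adjuvant libraries. The class I heavy chains H2-K1, H2-D1, H2-Q6 and H2-Q7 were lower, at -0.47, -0.50, -0.73 and -0.45, genes that share 16.1%, 20.3%, 44.2% and 33.3% of their possible reads with others. With quantile normalization (limma) H2-K1 and H2-D1 were not called, at -0.18 (adjusted p = 0.188) and -0.16 (adjusted p = 0.217). B2m (-0.14), Tap1 (0.11) and Psmb8 (-0.09) were not called. Of 34 type I interferon-stimulated genes, 1 was called higher and 2 lower. These shares, 2.94% and 5.88%, are near those among all tested genes, 4.64% and 4.42%. Among interferon gamma GTPases, Gbp10, Tgtp1 and Gbp8 share 87.9%, 83.2% and 25.5% of their possible reads with others, mainly Gbp6, Tgtp2 and Gbp4. Of the 17 tested, 4 were called higher (Gbp5, Gbp10, Iigp1 and Tgtp1, 0.98 to 2.15) and 1 lower (Gbp8, -0.64). Those 4 calls were 1 without VAT adjuvant alone replicate 1 and 2 without its replicate 2 or without VAT adjuvant/Fat1562 replicate 2. Leaving out the library in parentheses ended the calls of Psme2 (adjuvant 2), H2-Q7 (adjuvant 1, Fat 2 and Fat 3), Gbp5 (adjuvant 1 and adjuvant 2), Tgtp1 (adjuvant 1), Gbp8 (adjuvant 1, adjuvant 2, Fat 2 and Fat 3), Gbp10 (adjuvant 2 and Fat 2) and Iigp1 (adjuvant 1 and Fat 2) (edgeR adjusted p = 0.220 for Gbp8 at most).

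Genes of central T cells and lymphoid homing were not of one direction. Of 19 tested, 6 were called lower and 3 higher. Satb1, a chromatin organizer, had 176 and 169 normalized counts with adjuvant alone and 402, 328 and 313 with Fat1562 (1.01 ± 0.20), and Txk, a Tec family kinase, had 258 and 278 against 641, 688 and 595 (1.26 ± 0.15). Klf2, a factor that drives S1pr1, had 75.9 and 64.5 against 22.4, 18.2 and 34.4 (-1.48 ± 0.34), and Foxp1 had 489 and 572 against 209, 175 and 248 (-1.33 ± 0.16). Lef1 was lower, at -0.58 ± 0.13, while Tcf7 (-0.32), Ccr7 (0.52) and S1pr1 (-0.26) were not called. Among these genes, the calls of Klf2 (adjuvant 1 and Fat 2) and Lef1 (adjuvant 1 and adjuvant 2) were lost without the library in parentheses (edgeR adjusted p = 0.0914 for Klf2 at most).

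**Figure D4:**
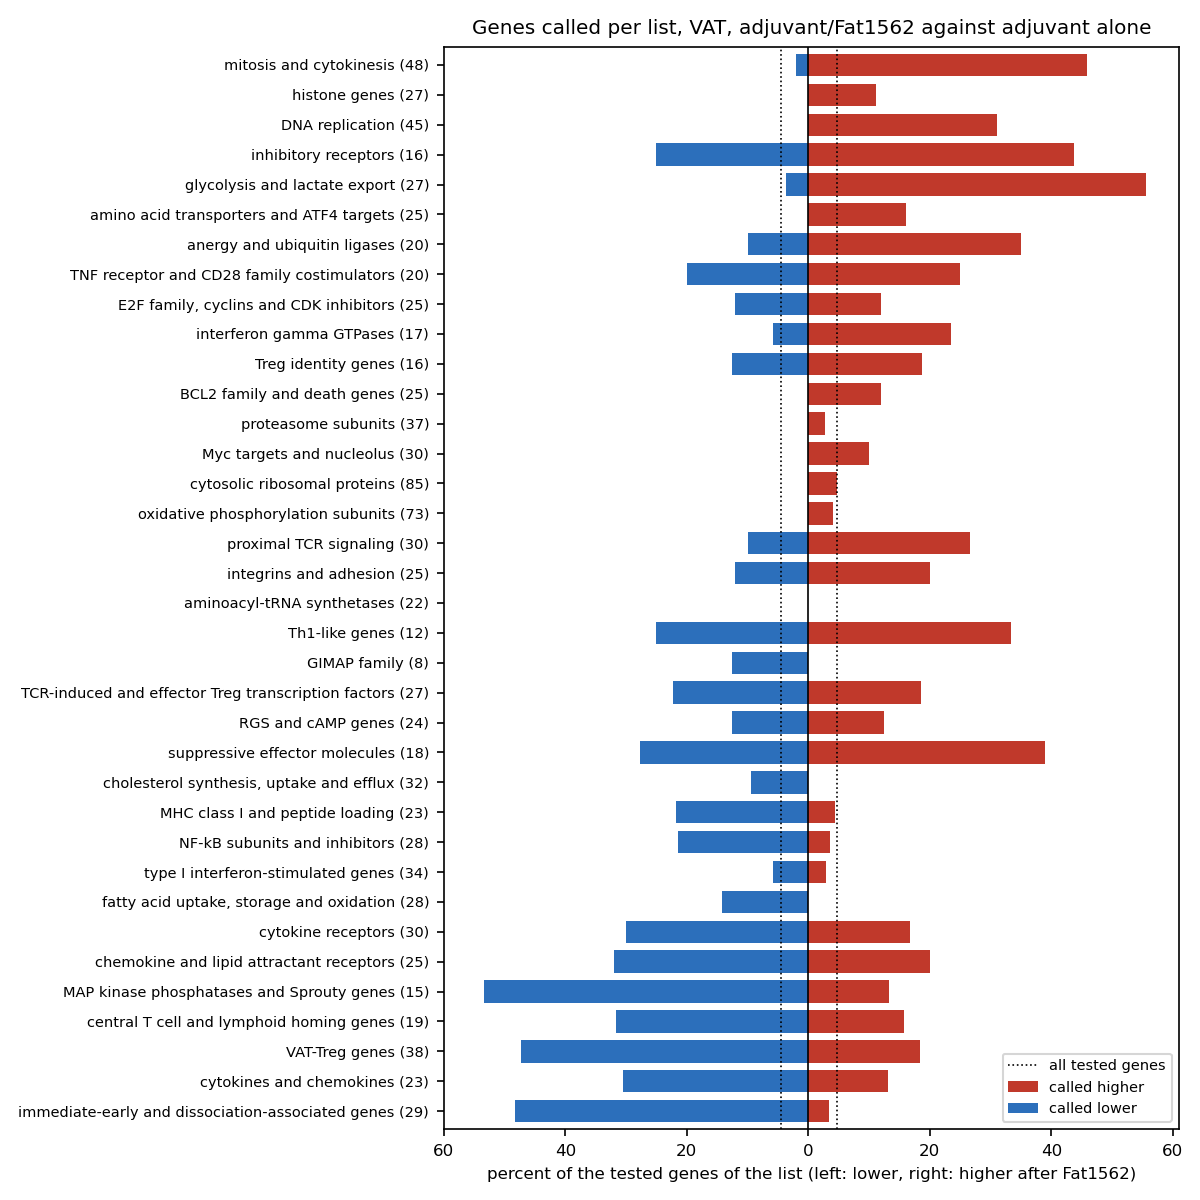
Percent of the tested genes of each list called higher (red, to the right) and lower (blue, to the left) in VAT after Fat1562, sorted by median log2 fold change, with the number of genes tested in parentheses. Dotted lines mark the shares among all tested genes, 4.64% and 4.42%. Glycolysis reaches 55.6% on the right and MAP kinase phosphatase and Sprouty genes 53.3% on the left.

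The effect in VAT was set against that in Spl/LN, where the same cells were sorted from the same kind of recipients, 3 libraries with adjuvant/Fat1562 and 3 with adjuvant alone. By the interaction term of the same fit, 489 genes (4.03% of those tested) differed between the tissues in their response, 222 with a higher and 267 with a lower value in VAT, and 2125 had an unadjusted p under 0.05. The count was 256 without VAT adjuvant alone replicate 1, 301 without its replicate 2, 288 without VAT adjuvant/Fat1562 replicate 2 and 324 without Spl/LN adjuvant/Fat1562 replicate 2. The 8 named genes with the smallest interaction p were Lrrc32, Lag3, Egr1, Anxa1, Btg2, Plin2, Zfp36 and Lilrb4a. Lrrc32 changed by 2.07 ± 0.18 (SE) on the log2 scale in VAT, whereas in Spl/LN its normalized count was 652 ± 135 (SD, n = 3) with adjuvant alone and 324 ± 38.3 with Fat1562. Plin2 changed by -0.76 ± 0.16 and 1.44 ± 0.16 in VAT and Spl/LN, and Egr1 by -2.23 ± 0.20 and 0.91 ± 0.18, so that these 3 had opposite signs in the tissues. Lilrb4a also had opposite signs, at -0.77 ± 0.16 in VAT and 1.32 ± 0.17 in Spl/LN. Lag3 and Anxa1 moved the same way in both tissues and further in VAT, by 4.62 against 1.34 and -4.64 against -1.42. Btg2 and Zfp36 were lower in VAT and at 0.20 ± 0.12 and 0.11 ± 0.13 in Spl/LN. By list, the interaction was called for 20 of 38 VAT-Treg genes, 18 of 48 mitosis genes, 8 of 29 immediate-early genes and 9 of 18 suppressive molecules, but for 2 of 45 replication genes and 1 of 12 Th1-like genes. In bulk libraries a larger share of cells with a transcript and more transcript per cell cannot be told apart, in either tissue.

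**Figure D5:**
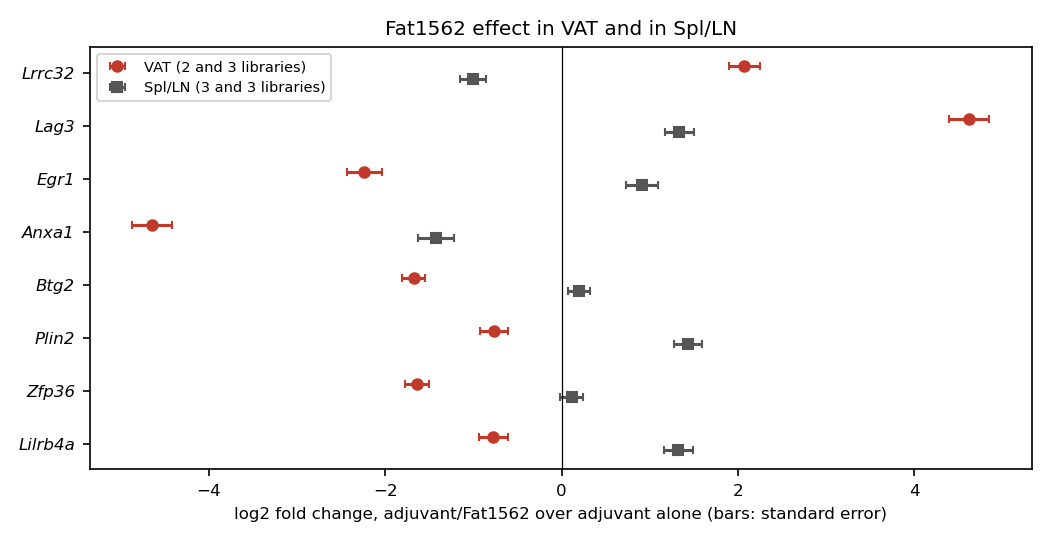
Log2 fold change between adjuvant/Fat1562 and adjuvant alone (x axis) in VAT (circles) and Spl/LN (squares) for the 8 named genes with the smallest interaction p, with standard errors as bars. Lrrc32, Egr1, Plin2 and Lilrb4a lie on opposite sides of 0 in the 2 tissues.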

How the data were processed

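RNA of 1000 sorted vTreg53 Treg cells per library was sequenced by Smart-seq2 in 11 libraries, 5 of them from VAT. The deposited values are raw counts per gene, made by the authors with STAR 2.5.4 and featureCounts on mm10 per the submitters' processing notes, whereas the methods of the study name Cuffquant and filters on expression and variation that were not applied to this table. The annotation and strand setting of the counting are not given in the sources used here, so reads of overlapping and antisense genes cannot be told apart. All columns matched a sample (0 did not). Genes with a mean above 10 in either VAT group were kept, and 1 edgeR 4.0.16 quasi-likelihood model (R 4.3.3) with a mean per tissue and immunization group was fitted to all 11 libraries with TMM factors, so that the spread is shared. Fold changes use a prior count of 0.125, and p-values were Benjamini-Hochberg adjusted over all 12122 genes with a threshold of 0.05. The interaction is the VAT difference minus the Spl/LN difference. The code was tested on simulated data.

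Named genes were the 12 largest changes in each direction among called genes with groups that did not overlap and a mean of 100 or more in a VAT group, leaving out immunoglobulin, TCR V and unnamed genes (0 among the increases and 5 among the decreases), up to 6 called members per direction of each list and members with a role, Foxp3, Cd4, Il2ra and Ikzf2 as checks, and the 8 named genes with the smallest interaction p. The members and gene lists were chosen with earlier results of these data known. Alternatives were other filters, scalings (including quantile normalization with limma 3.58.1), DESeq2 1.42.0, a fit of the VAT libraries alone, a replicate block, and leaving out each library. The numbers were not taken to pair the libraries, and the fit has no block. Locations are from GENCODE vM21 on GRCm38, matched by symbol for 220 of 221 genes named, of which 33 share over 10% of their exon bases or possible 38-base reads with another gene. Some genes that the naming rule selects are not reported here.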

Additional observations from a re-analysis of the deposited data

Results flagged for a closer look

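The effect of Fat1562 differed between VAT and Spl/LN for 8 named genes by the interaction term of edgeR's quasi-likelihood test with Benjamini-Hochberg adjustment, each from 2 and 3 VAT libraries and 3 and 3 Spl/LN libraries. The VAT log2 fold change was higher than that in Spl/LN by 3.07 ± 0.23 (SE) for Lrrc32 (adjusted p = 1.83e-06) and by 3.28 ± 0.27 for Lag3 (adjusted p = 4.49e-06). It was lower for the other 6 genes, the difference being -3.15 ± 0.27 for Egr1 (adjusted p = 6.63e-06), -3.22 ± 0.30 for Anxa1 (adjusted p = 1.21e-05) and -1.88 ± 0.18 for Btg2 (adjusted p = 1.73e-05). For Plin2 the difference was -2.20 ± 0.23 (adjusted p = 3.00e-05), for Zfp36 -1.75 ± 0.19 (adjusted p = 4.31e-05) and for Lilrb4a -2.10 ± 0.23 (adjusted p = 6.54e-05). Since these genes were picked by the size of this p among named genes, the values describe them.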

How the results depend on the processing

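The number of genes called in VAT (1098) ranged from 1021 to 1384 over the 9 alternatives in filter, scaling, tool, samples in the fit and block, with 537 to 701 higher and 482 to 683 lower. Leaving out 1 library at a time gave 533 to 1442 in all, 262 to 742 higher and 271 to 700 lower. The lowest counts came without VAT adjuvant alone replicate 2 (533), VAT adjuvant alone replicate 1 (568) and VAT adjuvant/Fat1562 replicate 2 (652), which leave fewer libraries in the groups compared. The interaction (489) was called for 787 genes by DESeq2, and for 256 to 581 with 1 library left out, the lowest being without VAT adjuvant alone replicate 1 (256), VAT adjuvant/Fat1562 replicate 2 (288), VAT adjuvant alone replicate 2 (301) and Spl/LN adjuvant/Fat1562 replicate 2 (324). The cause of the DESeq2 difference was not tested.

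Of 4399 values of the 221 named genes under alternatives, 4137 kept their direction and side of the threshold, 241 were no longer called, 20 were newly called, and 1 reversed: Ly6c2 without VAT adjuvant alone replicate 2, at 1.12, its log2 fold changes with 1 library left out running from -5.10 to 1.12. Calls ended by DESeq2 were those of Ccl4, Dgat2, Il10, Il5, Kit, Ly6c2 and Muc4, and by quantile normalization those of Dgat2, H2-D1, H2-K1, Il4ra, Il7r, Klf4, Klrg1 and Ly6c2. A fit of the VAT libraries alone ended those of Cd3e, Cxcr5, Dgat2, Il4ra, Il7r, Itgam, Srebf2 and Trat1, and no filter those of Cd3e, Crlf2 and Il1r1. Without 1 of the Spl/LN libraries, which share the estimate of the spread, calls of Cd3e, Cxcr5, Dgat2, Il1r1, Il4ra, Il7r, Itgam, Mcm5, Pola1, Srebf2 and Trat1 were lost.

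A replicate block with the numbers of the labels gave 1021 genes in VAT and 443 for the interaction, and ended 12 named calls (Cd274, Cd3e, Crlf2, Dgat2, Foxm1, Il1r1, Il4ra, Il7r, Itgam, Ly6c2, Nsdhl and Srebf2). The labels do not say what a number shares. The deviations of same-numbered libraries from their group means had correlations of -0.0348 to 0.0510 over 15 pairs of libraries, 0 of them above 0.1. Pairs of VAT with Spl/LN in the same immunization group had 0.0307 to 0.0510, and pairs across immunization groups -0.0348 to 0.00461. With 9 of 11 libraries correlating best with their own number, this is a hint from the data only. The block ties numbers across immunization groups, and a pairing of VAT with Spl/LN within an immunization group was not tested.

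With 2 control libraries and counts of 4490242 to 5957543 in VAT, genes with few counts have wide errors, and a gene not called is not shown to be unaffected. The small input of 1000 cells and PCR without molecular identifiers add error that the counts do not show.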

Other observations

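Some genes of the circadian clock, chosen after their values were seen and because they were lower, are given without a count or test of the clock as a group. Nr1d1, which encodes the repressor REV-ERBα, had normalized counts of 218 and 153 with adjuvant alone and 41.4, 24.2 and 57.1 with Fat1562 (log2 fold change -2.17 ± 0.35 (SE), edgeR adjusted p = 6.68e-04). Per3 had 94.4 and 110.5 against 12.3, 27.3 and 31.7 (-2.08 ± 0.37), Per1 had 1850.3 and 1899 against 995, 1087 and 969.8 (-0.88 ± 0.14), and Cry1 had 607 and 473 against 319, 362 and 374 (-0.62 ± 0.17). The clock genes Arntl (0.05 ± 0.15), Clock (-0.46 ± 0.31), Npas2 (-0.52 ± 0.83), Cry2 (-0.10 ± 0.32) and Nr1d2 (-0.71 ± 0.26) were not called. In the 4 genes called lower both adjuvant libraries lay above the 3 Fat1562 libraries, a separation found in 1090 of the 1098 called genes. Tsc22d3, the glucocorticoid-induced leucine zipper gene, was at -0.64 ± 0.16 (edgeR adjusted p = 0.0178). The hour at which each mouse was killed is not given in the sources used here, and its part in these differences was not tested. Calls that were lost without the library in parentheses were Cry1 (adjuvant 1, Fat 1, Fat 2 and Fat 3) and Tsc22d3 (adjuvant 1 and Fat 2) (edgeR adjusted p = 0.329 for Cry1 at most).

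Ddit4, an inhibitor of mTORC1, had 231 and 219.7 counts with adjuvant alone and 618, 659 and 566 with Fat1562 (1.45 ± 0.17), and Bcl2l11, which encodes the pro-apoptotic protein BIM, had 47.7 and 75.7 against 146, 124 and 147 (1.18 ± 0.28). Among markers of other cells, Itgam, which encodes CD11b, was called higher (0 and 6.21 against 59.3, 12.1 and 15.4, 3.23 ± 0.97, edgeR adjusted p = 0.0467), and 68.7% of its exon bases overlap other genes. Its call was lost in 8 of 18 alternatives, with an adjusted p of 0.306 at most. The other 5 tested of 23 macrophage and dendritic cell markers were not called. Pecam1, listed as an endothelial marker, was called higher (293 and 233 against 581, 585 and 409.7). Of the 3 endothelial and mesothelial markers tested, 1 was called higher and 1, Lrrn4, lower. Cd74, listed with B cells, was at 0.58 ± 0.12. It was the only 1 of 14 tested B cell and plasma cell markers called higher, while 5 were called lower. Leaving out the library in parentheses ended the calls of Bcl2l11 (adjuvant 1), Itgam (adjuvant 1 and Fat 1) and Cd74 (adjuvant 1) (edgeR adjusted p = 0.306 for Itgam at most).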
